A study of Mus musculus with 12 samples.

Results

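Astrocytes of the cerebral cortex were compared between mouse pups that had been separated daily from the dam and pups that had not, over both genotypes of the study at once. All 12 libraries of the series entered the comparison, 6 from separated pups (called ESD, early life stress, in the labels) and 6 from control pups, with genotype as a covariate. Libraries were assigned by their sample titles, and no measured value was used to choose them. The Cre- control and Cre- ESD groups (3 libraries each) have a floxed Nr3c1 gene and no recombinase, and the AGR cKO control and AGR cKO ESD groups (3 each) have the floxed gene together with Aldh1l1-CreERT2. Nr3c1 encodes the glucocorticoid receptor. CreERT2 is a recombinase that works only with tamoxifen or its active form, and here the astrocyte promoter Aldh1l1 drives it. Pups of every group, controls included, received 4-hydroxytamoxifen on postnatal days 5 to 7. ESD pups were kept from the dam for 3 hours daily between day 1 and day 14, so the separation began before the receptor was deleted in AGR cKO pups. Astrocytes were taken at day 14 by immunopanning and Miltenyi beads. The labels do not give the deleted exon, the sex of the pups, or whether each library came from its own animal, so p-values measure the spread between these libraries, which may be technical.

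Glucocorticoids are released by the adrenal gland under stress, enter cells and bind the receptor, which is held ready by heat shock chaperones. The bound receptor moves to the nucleus and switches on genes such as Fkbp5, Zbtb16 and Tsc22d3. In the early postnatal weeks astrocytes multiply, extend fine processes to synapses, take up glutamate and potassium, and engulf synaptic material through the receptors Mertk and Megf10. Separation of rodent pups from the dam is a common laboratory model of early adversity.

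The libraries held 42603546 to 52130081 counts each. Levels are given in CPM, a read count scaled by library size and composition. By library size alone 1 CPM stood for about 42.6 to 52.1 reads, and the composition factors ran from 0.956 to 1.05. Depth moved with the condition in Cre- animals, with 42603546 to 43659453 counts in control and 47075985 to 50658633 in ESD libraries, and its part in the results was not tested. The deleted gene separated the genotypes: Nr3c1 stood at 66.6 to 108 CPM in the 6 AGR cKO libraries and 199 to 237 CPM in the 6 Cre- libraries. Over the 12 libraries Ddx3y, a gene of the Y chromosome, stood at 79.9 to 126 CPM. Xist, the RNA of the inactive X chromosome, stood at 0.297 to 1.33 CPM. Astrocyte markers were abundant, with 50503 to 68624 CPM summed over 20 genes. Markers of other cells were present at lower levels, and Cre- control 1 stood apart by its endothelial markers, at 3094 CPM summed over 14 genes beside 505 to 1904 CPM in the others. In such bulk samples, fewer cells of a type and less RNA per cell cannot be told apart.

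No gene was called for separation over both genotypes. In edgeR's quasi-likelihood test with Benjamini-Hochberg adjustment, 0 of 19163 genes (0%) had an adjusted p under 0.05, and the smallest adjusted p was 0.444. At an unadjusted p under 0.05 stood 1975 genes (10.3%), of which 832 (4.34%) were higher and 1143 (5.96%) lower in ESD. With library totals as the scaling these became 461 higher and 1708 lower. The same fit called 748 genes (3.9%) for genotype, 308 higher and 440 lower in AGR cKO, and put 20.1% of genes at an unadjusted p under 0.05 for it. DESeq2, run on the same counts, called 31 genes for separation, 11 higher and 20 lower, and limma on log2 TPM called 0. Among genes of at least 5 CPM the differences were small: the median size of the log2 fold change was 0.08, beside a median standard error of 0.08.

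The genes with the smallest p among those lower in ESD came from several cell functions. Bcorl1 (chromosome X, 48341358 to 48408068), a transcriptional corepressor, stood at 25.7, 27.1 and 28.05 CPM (lowest, median and highest) in control libraries and at 19.7, 21.7 and 24.9 CPM in ESD libraries. The groups did not overlap, and the log2 fold change was -0.30 ± 0.05 (SE; edgeR adjusted p = 0.444, the value shared by all genes at the top of the ranking; DESeq2 adjusted p = 0.00142). Such separation of all 6 ESD libraries below all 6 control libraries was seen for 43 genes (0.224%), and above them for 45 genes (0.235%). Pxdn (chromosome 12, 29936642 to 30017658), peroxidasin, which crosslinks collagen IV in basement membranes, stood at 178, 212 and 228 CPM in control and 135, 160 and 189 CPM in ESD libraries. The ranges overlapped over both genotypes but not within either, and the log2 fold change was -0.36 ± 0.06. Separation within each genotype held for 117 genes (0.611%) lower and 116 genes (0.605%) higher in ESD. These counts include the genes that separated over all 12 libraries. Rnd3 (chromosome 2, 51130439 to 51149111), a small GTPase that opposes RhoA and its kinase, stood at 41.6, 55.0 and 64.7 CPM in control and 33.1, 39.9 and 45.7 CPM in ESD libraries. It too separated within each genotype, with a log2 fold change of -0.44 ± 0.08. Dnajb1 (chromosome 8, 83608175 to 83612653), an HSP40 co-chaperone that delivers clients to HSP70, stood at 57.6, 65.1 and 71.3 CPM in control and 44.2, 50.4 and 55.8 CPM in ESD libraries. All 6 ESD libraries lay below all controls, and the log2 fold change was -0.37 ± 0.07.

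**Figure D1:**
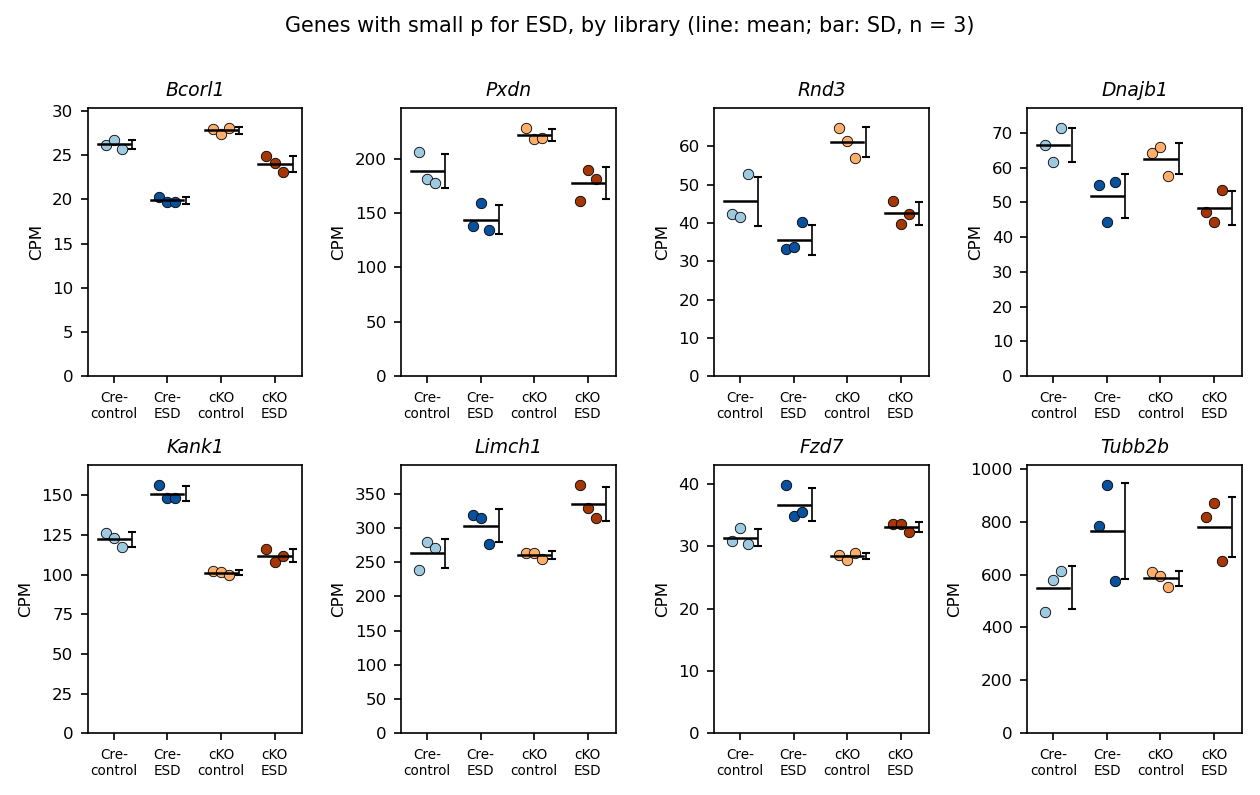
CPM of 8 genes in each library, by group; points are libraries, lines the mean and bars the SD of 3. Bcorl1 and Dnajb1 lay lower in all 6 ESD libraries than in all 6 controls, and Tubb2b was above every control in all ESD libraries but Cre- ESD 3 (576 CPM), which lay within the control range of 457 to 613.

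Bahd1, a heterochromatin protein, stood at 25.4 to 29.0 CPM in control and 21.4 to 23.3 CPM in ESD libraries (log2 fold change -0.25 ± 0.05). Arv1, a lipid transporter of the endoplasmic reticulum, stood at 20.8 to 27.9 CPM in control and 16.2 to 20.8 CPM in ESD libraries (-0.34 ± 0.08). Rbm12b2, an RNA-binding protein, stood at 35.4 to 47.0 CPM in control and 26.8 to 35.3 CPM in ESD libraries (-0.39 ± 0.07). For these 3 genes as well no ESD library reached the lowest control. Rbm12b2 has a close copy, Rbm12b1, and how reads were divided between them is not stated. Padi2, a peptidylarginine deiminase, was lower in ESD by a log2 fold change of -0.40 ± 0.08, and Dipk2a, a kinase-like protein of the secretory pathway, by -0.37 ± 0.08. Both separated within each genotype. Aopep, an aminopeptidase, differed by -0.56 ± 0.13, with 1 control library (Cre- control 2, 8.36 CPM) inside the ESD range.

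A pair of genes best known from neurons stood in the same set. Cntnap1, a protein of the paranodal junction of axons, stood at 6.65, 7.49 and 9.90 CPM in control and 3.68, 5.37 and 7.12 CPM in ESD libraries (log2 fold change -0.60 ± 0.12). Ndrg4, abundant in brain and heart, stood at 38.7, 15.8 and 42.2 CPM in Cre- control libraries 1 to 3 and at 19.1, 45.0 and 40.8 CPM in AGR cKO control libraries 1 to 3. It stood at 13.9 to 18.5 CPM in the ESD libraries (-1.06 ± 0.24). Each genotype thus had 1 control library at about the ESD level, Cre- control 2 and AGR cKO control 1. Over 19 neuron markers the median log2 fold change was -0.31, with 3 above and 16 below 0, and ran from -0.47 without Cre- ESD 1 to -0.19 without AGR cKO control 2. In Cre- 15 of the 19 were above 0 (median 0.16), a value that rested on 1 library. Set against the Cre- controls, the mean log2 CPM of the markers was 0.53 in Cre- ESD 1. It was -0.03 in Cre- ESD 2 and -0.07 in Cre- ESD 3. The log2 fold changes in Cre- were -0.57 for Cntnap1 and -0.88 for Ndrg4. The part of neurons in the values of both genes was not tested.

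The genes higher in ESD differed by less. Kank1 (chromosome 19, 25236732 to 25434498), which links integrin adhesions to the microtubule-anchoring cortex, stood at 117 to 126 CPM in Cre- control and 148 to 156 CPM in Cre- ESD libraries. AGR cKO libraries held 99.99 to 103 CPM in control and 108 to 116 CPM in ESD libraries. It separated within both genotypes, with a log2 fold change of 0.22 ± 0.05 (edgeR adjusted p = 0.444; DESeq2 adjusted p = 0.00807). Limch1 (chromosome 5, 66745889 to 67057159), an activator of non-muscle myosin II, stood at 239, 264 and 279 CPM in control and 276, 317 and 363 CPM in ESD libraries (0.29 ± 0.06). Only Cre- ESD 3, at 276 CPM, lay within the control range. Fzd7 (chromosome 1, 59482147 to 59486955), a Wnt receptor, stood at 27.8, 29.6 and 32.9 CPM in control and 32.2, 34.2 and 39.8 CPM in ESD libraries (0.22 ± 0.05). Tubb2b (chromosome 13, 34127008 to 34130354), a beta-tubulin of developing brain, stood at 457, 587 and 613 CPM in control and 576, 801 and 937 CPM in ESD libraries (0.45 ± 0.12). Its coding sequence is close to that of Tubb2a, so the division of reads between them is uncertain.

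Mthfd1, a folate enzyme, stood at 86.9 to 98.5 CPM in control and 99.4 to 116 CPM in ESD libraries (log2 fold change 0.23 ± 0.05). Erc1, a cortical scaffold protein, stood at 67.9 to 80.3 CPM in control and 83.1 to 91.4 CPM in ESD libraries (0.21 ± 0.05). Sbf2, a myotubularin-related protein, stood at 124 to 138 CPM in control and 142 to 167 CPM in ESD libraries (0.21 ± 0.05). In all of these the highest control lay below the lowest ESD library. The other named genes were Erh (0.27 ± 0.06), Pde6d, a chaperone of prenylated proteins (0.24 ± 0.06), Extl2, a glycosyltransferase of heparan sulfate synthesis (0.24 ± 0.06), Cmip (0.22 ± 0.06) and Fam120c (0.37 ± 0.09). DESeq2 called 19 of these 24 genes (12 higher and 12 lower in edgeR), among them all 12 lower genes. It did not call Tubb2b, Fam120c, Sbf2, Extl2 and Cmip, which were all higher in ESD. The 24 were picked by edgeR's p, and DESeq2 used the same counts and model terms. The same direction in both was therefore given in advance and is no separate evidence.

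Of the genes whose ESD and control libraries did not overlap, 36 higher and 23 lower had at least 5 CPM and a symbol that is no predicted model. The sizes of their log2 fold changes ran from 0.08 to 0.29 (median 0.17) among the higher and from 0.11 to 0.62 (median 0.28) among the lower. The following genes were picked from them after their values were seen. Drd3, a dopamine receptor, stood at 5.80 to 9.54 CPM in control and 3.44 to 5.21 CPM in ESD libraries (log2 fold change -0.62 ± 0.15). Pcdh1, a protocadherin, stood at 192 to 244 CPM in control and 121 to 190.0 CPM in ESD libraries (-0.38 ± 0.11). On the higher side stood Pink1, a kinase of damaged mitochondria, at 144 to 206 CPM in control and 209.7 to 266 CPM in ESD libraries (0.29 ± 0.09). Tomm20, a receptor of the mitochondrial import pore, stood at 75.1 to 90.9 CPM in control and 91.2 to 109 CPM in ESD libraries (0.20 ± 0.06). Amot, an angiomotin of the Hippo pathway, stood at 119 to 158 CPM in control and 161 to 214 CPM in ESD libraries (0.29 ± 0.09). Esd, the gene of the enzyme esterase D and no relation of the condition's abbreviation, stood at 28.3 to 31.5 CPM in control and 31.7 to 35.8 CPM in ESD libraries (0.16 ± 0.05).

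The separation difference was next set side by side in the genotypes, whose comparisons share no library. Within Cre- animals edgeR called 0 genes, with 1378 (7.19%) at an unadjusted p under 0.05, and within AGR cKO animals 0, with 1453 (7.58%). The log2 fold changes had the same sign in both genotypes for 58.8% of the 19163 genes. Of the 1378 genes at an unadjusted p under 0.05 in Cre- animals 67.6% had the same sign in AGR cKO, and of the 1453 such genes in AGR cKO 67% had the same sign in Cre-. Of the 137 genes at that level in both, 36 were higher in both, 70 lower in both, 11 higher in Cre- and lower in AGR cKO, and 20 the reverse. Across 11763 genes of at least 5 CPM the log2 fold changes had a Pearson correlation of 0.26 and a Spearman correlation of 0.33, given as a description since genes are not independent replicates.

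**Figure D2:**
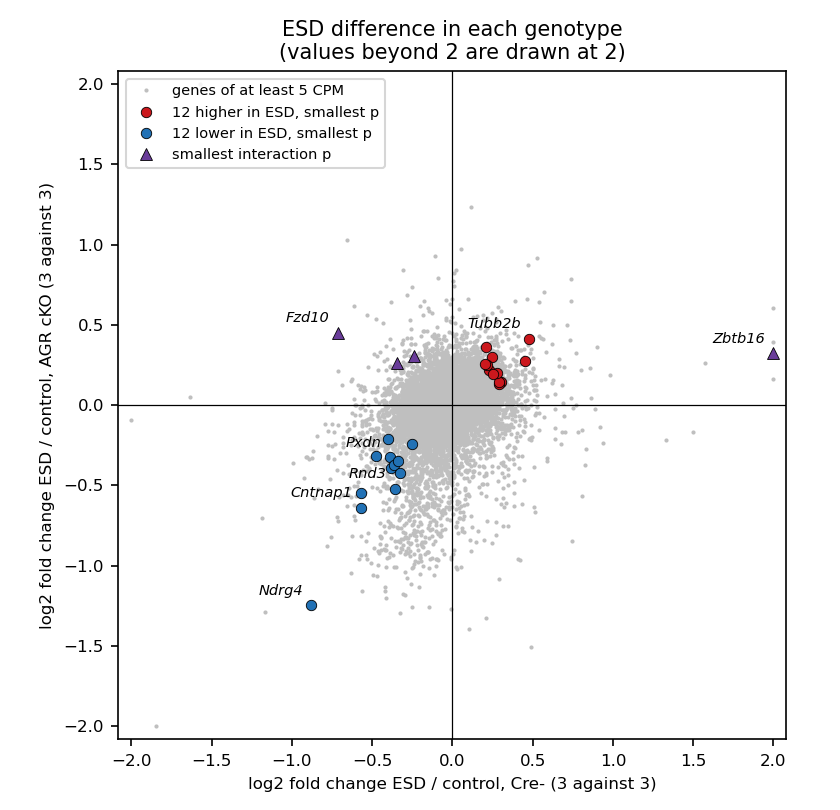
Log2 fold change of ESD against control in Cre- (x axis) and AGR cKO (y axis), 3 libraries against 3 in each; grey points are genes of at least 5 CPM, coloured points the 24 named genes and triangles 4 of the 5 genes with the smallest interaction p. The named genes lie in the quadrants of equal sign, as their choice by the joint comparison favours, while Fzd10, Abcb9 and Cacng8 lie at opposite signs.

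A test of the difference between the genotypes (edgeR interaction) called 0 genes, with 860 (4.49%) at an unadjusted p under 0.05 and a smallest adjusted p of 0.904. Fzd10, another Wnt receptor, stood at 51.7, 57.9 and 72.5 CPM in Cre- control and 34.1, 35.5 and 41.6 CPM in Cre- ESD libraries. In AGR cKO it stood at 47.3, 44.7 and 42.6 CPM in control and 65.4, 49.0 and 69.6 CPM in ESD libraries. Every ESD library was thus below its controls in Cre- (log2 fold change -0.71 ± 0.15) and above them in AGR cKO (0.45 ± 0.15). Cacng8, an auxiliary subunit of AMPA receptors, had log2 fold changes of -0.24 ± 0.08 in Cre- and 0.31 ± 0.08 in AGR cKO. Abcb9, a lysosomal peptide transporter, had log2 fold changes of -0.34 ± 0.09 in Cre- and 0.26 ± 0.09 in AGR cKO. The interaction's adjusted p was 0.904 for these 3 genes (edgeR).

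Among receptor-linked genes, the joint comparison joined unlike values. Zbtb16 (chromosome 9, 48651797 to 48836225), a zinc finger factor induced by glucocorticoids, stood at 54.5, 48.7 and 104 CPM in Cre- ESD and 10.8 to 13.0 CPM in Cre- control libraries. AGR cKO libraries held 7.25, 10.6 and 19.0 CPM in ESD and 8.88 to 11.3 CPM in control libraries. The joint log2 fold change of 1.46 ± 0.41 thus stood between 2.56 ± 0.35 in Cre- and 0.32 ± 0.34 in AGR cKO. The interaction's p for Zbtb16 was 0.00055 in edgeR, or 0.980 after adjustment. Within Cre- its edgeR p was 1.01e-05, or 0.194 after adjustment, so it was called in neither. Fkbp5 (chromosome 17, 28398753 to 28486149), a co-chaperone that restrains the receptor, stood at 11.1, 9.93 and 103 CPM in Cre- ESD and 6.85, 9.53 and 7.17 CPM in Cre- control libraries, without overlap. AGR cKO ESD libraries held 3.35, 5.23 and 6.62 CPM and AGR cKO controls 3.54 to 4.04 CPM, with overlap. The size of the difference rested on Cre- ESD 3: the joint log2 fold change of 1.44 ± 0.59 was 0.41 without Cre- ESD 3. That library also held the highest Hif3a (362 CPM), Tsc22d3 (367 CPM) and Mertk (818 CPM). Hif3a, a factor of the hypoxia family, had a joint log2 fold change of 0.52 ± 0.25, or 0.25 without it. Tsc22d3, the leucine zipper GILZ, had 0.22 ± 0.22, or -0.07 without it. Sgk1, a kinase induced by corticosteroids, stood at -0.05 ± 0.19. Over the 22 glucocorticoid-responsive genes, 17 had log2 fold changes above 0, beside 47.9% of all genes, with a median of 0.14 and 3 higher and 0 lower at an unadjusted p under 0.05 (edgeR). Without Cre- ESD 3 the median was -0.02. Of all genes tested 4.34% were higher and 5.96% lower at an unadjusted p under 0.05 (edgeR).

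**Figure D3:**
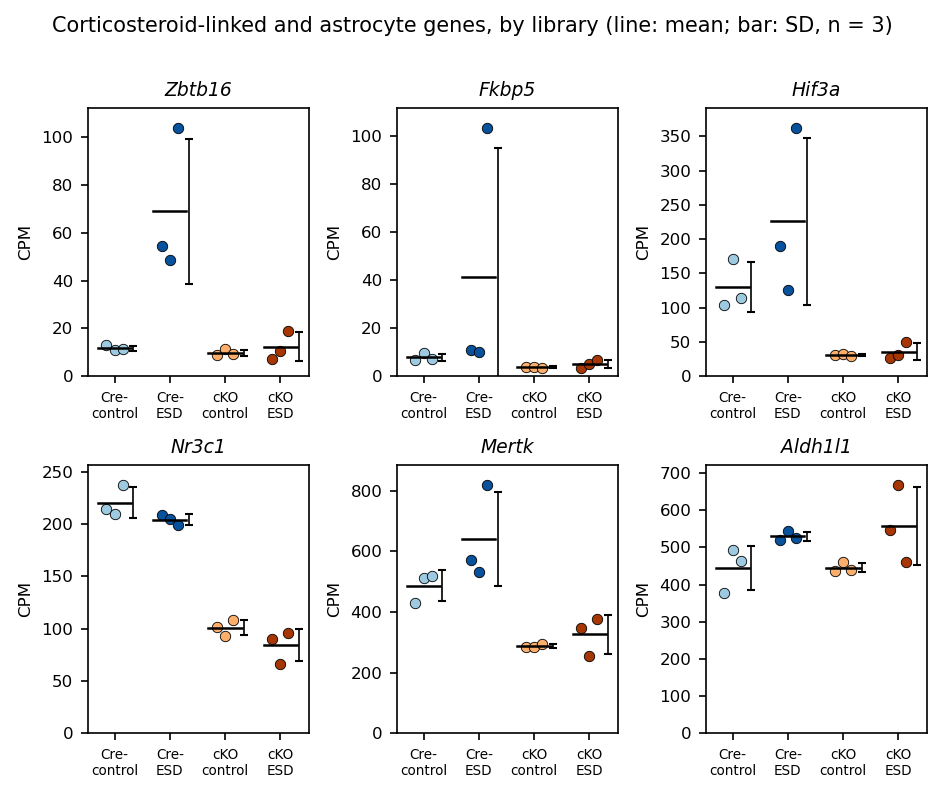
CPM of 6 genes in each library, by group; points are libraries, lines the mean and bars the SD of 3 (the lower bar of Fkbp5 in Cre- ESD is clipped at 0). Cre- ESD 3 is the high point of Zbtb16, Fkbp5, Hif3a and Mertk, and Nr3c1 splits by genotype rather than by condition.

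Nr3c1 (chromosome 18, 39410545 to 39519421) was itself lower in ESD by a log2 fold change of -0.19 ± 0.08 (edgeR adjusted p = 0.475), with -0.11 ± 0.12 in Cre- and -0.26 ± 0.12 in AGR cKO. The joint value was -0.11 without AGR cKO ESD 2, the lowest library at 66.6 CPM. An exact two-sided permutation test of the ESD label within genotype, which has 400 arrangements and cannot go below 0.005, gave p = 0.025 (0.105 after Benjamini-Hochberg adjustment over 14 values). Aldh1l1 (chromosome 6, 90550768 to 90599171), a folate enzyme and the astrocyte gene whose promoter drives the recombinase, stood at 377, 449 and 492 CPM in control and 459, 535 and 667 CPM in ESD libraries. The difference on the log2 scale was 0.29 ± 0.09 (edgeR adjusted p = 0.444), with an exact permutation p of 0.01 (0.105 adjusted). The same test gave p = 0.04 for Zbtb16 and 0.045 for Fkbp5, and also p = 0.04 for the log2 total count and 0.025 for the share of counts in the 10 most abundant genes, all 0.105 after adjustment (exact permutation). Of the 14 corticosteroid receptors, enzymes and chaperones 5 were above and 9 below 0 (median -0.02, up to 0.0076 with 1 library left out), and Nr3c2, the mineralocorticoid receptor, stood at -0.12 ± 0.08 (-0.06 without AGR cKO ESD 2).

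The series title names Mertk, a receptor tyrosine kinase that bridges to dying material through Gas6 and Pros1. Mertk (chromosome 2, 128698915 to 128803162) stood at 429, 512 and 520 CPM in Cre- control and 570, 534 and 818 CPM in Cre- ESD libraries. In AGR cKO it stood at 284, 285 and 296 CPM in control and 349, 255 and 376 CPM in ESD libraries, so that AGR cKO ESD 2 lay below every control. The joint log2 fold change was 0.29 ± 0.12 (edgeR adjusted p = 0.459; exact permutation p = 0.085) and was 0.18 without Cre- ESD 3 and 0.37 without AGR cKO ESD 2. Axl, a sister kinase, stood at 0.03 ± 0.06 and Megf10 (chromosome 18, 57133090 to 57297467), the other engulfment receptor of astrocytes, at 0.00 ± 0.11. Neither sign was stable: with library totals as the scaling both were below 0. Of the ligands, Gas6 stood at -0.09 ± 0.09 and Pros1 at -0.22 ± 0.09. Over the 20 engulfment genes 12 were above and 8 below 0, with a median of 0.02 (-0.01 with library totals and -0.02 without Cre- ESD 3), 1 higher (Mertk) and 2 lower (Pros1 and the adaptor Gulp1) at an unadjusted p under 0.05 (edgeR). Of all genes tested 4.34% were higher and 5.96% lower at that level. Of the 20 lysosome and phagosome genes 15 were above 0 (median 0.03, or -0.0028 with library totals). Npc2, a cholesterol carrier of lysosomes, stood at 133, 141 and 152 CPM in control and 140.0, 162 and 172 CPM in ESD libraries (0.17 ± 0.05). The protease Ctsb stood at 535, 601 and 667 CPM in control and 612, 691 and 737 CPM in ESD libraries (0.18 ± 0.07), and the ranges overlapped in both genes.

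Groups of housekeeping and metabolic genes lay on one side of 0. All 22 cytosolic ribosomal protein genes tested were above 0 (median 0.15, range 0.07 to 0.27), 9 of them higher at an unadjusted p under 0.05 (edgeR), where 4.34% of all genes were. None was called, and none separated the groups. Rpl19 stood at 97.2, 109 and 118 CPM in control and 108, 133 and 137 CPM in ESD libraries (0.23 ± 0.07), and Rpl13 at 121, 128 and 138 CPM in control and 129, 158 and 171 CPM in ESD libraries (0.23 ± 0.08). The highest ESD values belonged to libraries 1 and 2 of each genotype, and both number 3 ESD libraries lay within the control range. Ribosomal protein genes have many processed pseudogenes, so their counts depend on how shared reads were assigned. All 23 nuclear genes of oxidative phosphorylation were also above 0 (median 0.11, range 0.05 to 0.22), with 4 higher at an unadjusted p under 0.05 (edgeR). Cox4i1, a subunit of cytochrome oxidase, stood at 134, 157 and 169 CPM in control and 154, 169.7 and 185 CPM in ESD libraries (0.16 ± 0.07). The transcripts of the mitochondrial genome had 1 of 13 above 0 (median -0.06), with 7 above 0 in Cre- (median 0.02) and 0 in AGR cKO (median -0.18). Their joint median was -0.14 without Cre- control 1 and -0.01 without Cre- control 2. The medians of the ribosomal and nuclear lists kept their sign in every scaling and with any 1 library left out, and the oxidative phosphorylation median was 0.03 without Cre- control 1, Cre- ESD 3 and AGR cKO ESD 1 together.

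Glucose enters astrocytes, is split by glycolysis and leaves in part as lactate. Of 20 genes of glycolysis and lactate export 16 were above 0 (median 0.12), with 6 higher and 0 lower at an unadjusted p under 0.05 (edgeR). Of all genes tested 47.9% were above 0, and 4.34% were higher and 5.96% lower at that level. Hk2, a hexokinase, stood at 13.0, 20.8 and 29.7 CPM in control and 13.5, 30.1 and 45.4 CPM in ESD libraries (0.50 ± 0.21), and Gapdh at 386, 445 and 480 CPM in control and 434, 489 and 516 CPM in ESD libraries (0.14 ± 0.06). Of 16 genes that handle glutamate, potassium and water 15 were above 0 (median 0.13), 1 of them higher at an unadjusted p under 0.05 (edgeR). Slc1a3, the glutamate transporter GLAST, stood at 7181 to 9614 CPM in control and 8324 to 9620 CPM in ESD libraries (0.15 ± 0.08). Without the same 3 libraries the median of these 16 genes was 0.05. The 20 astrocyte markers gave 15 above 0 and a median of 0.06, or -0.03 without those 3 libraries. Cholesterol synthesis genes lay apart in the genotypes: of 22, 6 were above 0 in Cre- (median -0.07; 45.9% of all genes) and 20 in AGR cKO (median 0.11; 51% of all genes), and the difference of the medians was not tested. Hsd17b7, a sterol reductase, was lower in ESD in both genotypes (joint -0.25 ± 0.06), and Mvk, mevalonate kinase, higher in both (0.20 ± 0.07).

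**Figure D4:**
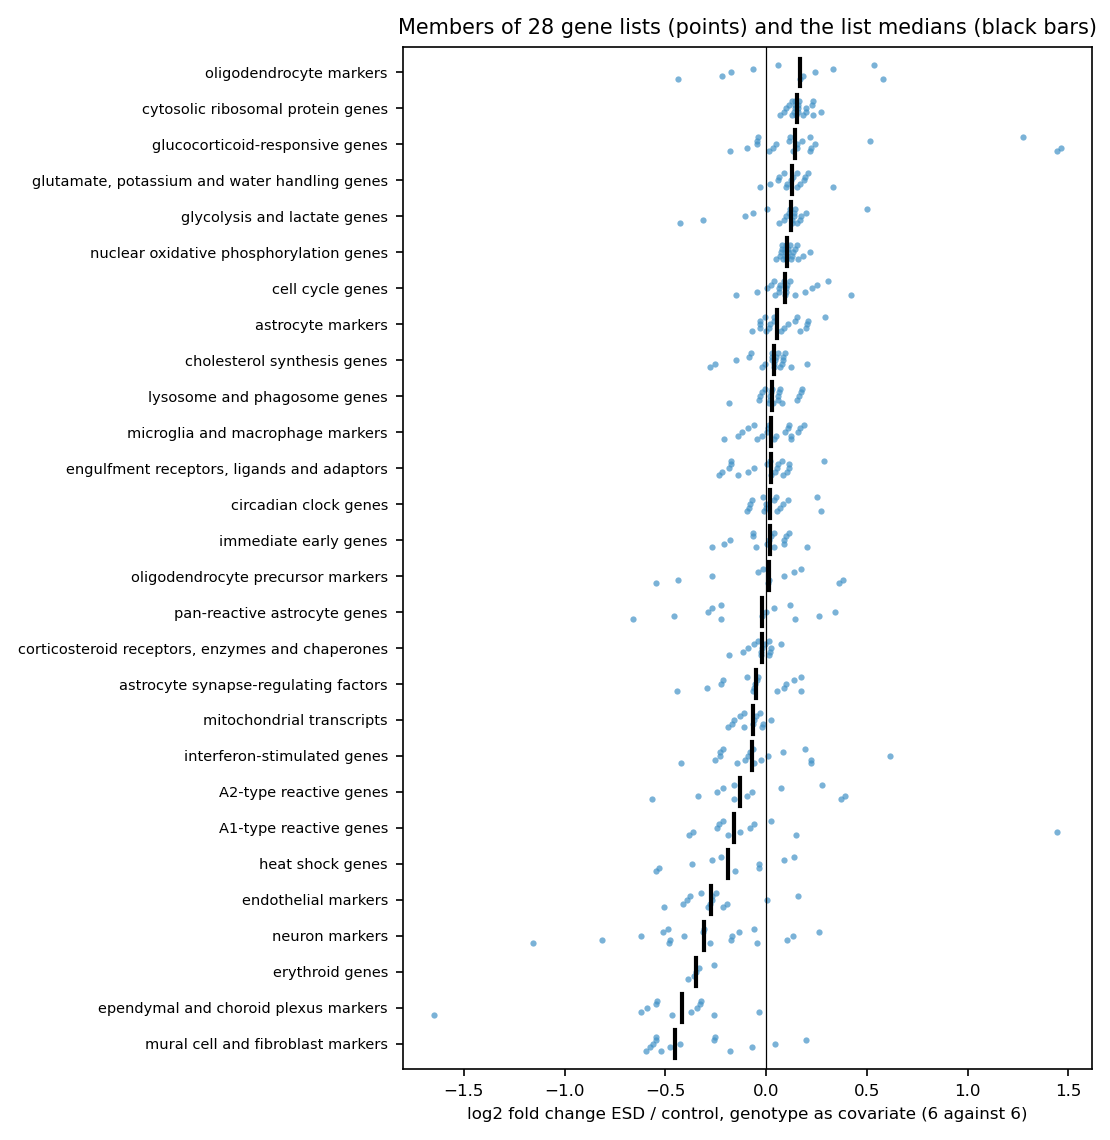
Log2 fold changes of ESD against control, genotype as covariate, of the members of 28 gene lists (points) with list medians (black bars), ordered by median. Ribosomal and oxidative phosphorylation genes lie wholly above 0, ependymal and erythroid genes wholly below 0, and the single points near 1.4 are Zbtb16 and Fkbp5.

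Heat shock genes code for chaperones that refold proteins and are switched on by heat shock factors, which bind repeats of NGAAN. Their start regions are shown because Dnajb1 was among the leading genes and 8 of the 10 members stood below 0. The 250 bases before the start site listed first for each gene in RefSeq (GRCm38.p6, the mm10 assembly) were searched. The search was for the head-to-head and tail-to-tail pairs of that repeat, GAANNTTC and TTCNNGAA, each of which reads the same on both strands. Capitals mark a match. The regions are chr17:34972157-34972406 on the minus strand for Hspa1a, chr5:149636337-149636586 on the minus strand for Hsph1 and chr8:83607925-83608174 on the plus strand for Dnajb1. The Hsph1 region reaches into the RefSeq gene (149616843 to 149636498), so the start site used there was not the outermost.
Hspa1a: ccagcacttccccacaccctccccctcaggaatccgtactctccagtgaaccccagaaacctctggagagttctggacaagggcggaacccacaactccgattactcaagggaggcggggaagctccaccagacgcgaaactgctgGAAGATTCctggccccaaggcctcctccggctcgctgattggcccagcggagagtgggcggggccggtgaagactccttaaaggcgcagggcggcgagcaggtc
Hsph1: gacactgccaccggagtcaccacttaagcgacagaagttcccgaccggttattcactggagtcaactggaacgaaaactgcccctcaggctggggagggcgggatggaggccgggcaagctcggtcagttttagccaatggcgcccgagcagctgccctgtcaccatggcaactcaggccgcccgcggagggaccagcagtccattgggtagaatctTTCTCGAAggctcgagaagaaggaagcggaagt
Dnajb1: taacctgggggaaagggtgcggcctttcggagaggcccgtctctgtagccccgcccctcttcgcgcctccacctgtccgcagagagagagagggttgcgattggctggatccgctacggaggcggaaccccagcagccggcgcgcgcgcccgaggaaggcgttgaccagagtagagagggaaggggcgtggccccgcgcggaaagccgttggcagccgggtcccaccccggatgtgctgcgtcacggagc
Hspa1a held 1 GAANNTTC from base -104 to -97 and Hsph1 held 1 TTCNNGAA from base -33 to -26, counted back from the start site, while neither motif's letters were in the window of Dnajb1. Of the 10 heat shock genes, with 1 window each, 6 held either motif. Among them are Hspa1a and Hspa1b, whose windows are alike at 98.8% of bases. The share over all 32851 listed windows was 12.8%, counted without choosing 1 per gene, so the shares are not strictly alike. A match is a description and shows no binding.

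Over these 10 genes the median log2 fold change was -0.19. At an unadjusted p under 0.05 (edgeR) 4 were lower (Dnajb1, Hsph1, Hspa1a and Hspa1b) and 1 higher (Hspe1). Of all genes tested 5.96% were lower and 4.34% higher at that level. Hsph1, an HSP110 nucleotide exchange factor, stood at 76.0, 78.8 and 87.3 CPM in control and 56.1, 68.2 and 87.5 CPM in ESD libraries (-0.22 ± 0.08). Hspa1a, an inducible HSP70, stood at 364, 223 and 420 CPM in Cre- control and 320, 201 and 396 CPM in Cre- ESD libraries. In AGR cKO it stood at 317, 386 and 436 CPM in control and 124, 184 and 278 CPM in ESD libraries. The groups thus overlapped in Cre- (-0.14) and not in AGR cKO (-0.96), and the joint value was -0.55 ± 0.25; the difference between the genotypes had an adjusted p of 0.999 (edgeR interaction). Hspa1b, its near-identical neighbour, stood at -0.53 ± 0.24. Their windows are alike at 98.8% of bases, and how reads were divided between the copies is not stated. Dnajb1 had log2 fold changes of -0.36 ± 0.11 in Cre- and -0.37 ± 0.11 in AGR cKO.

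**Figure D5:**
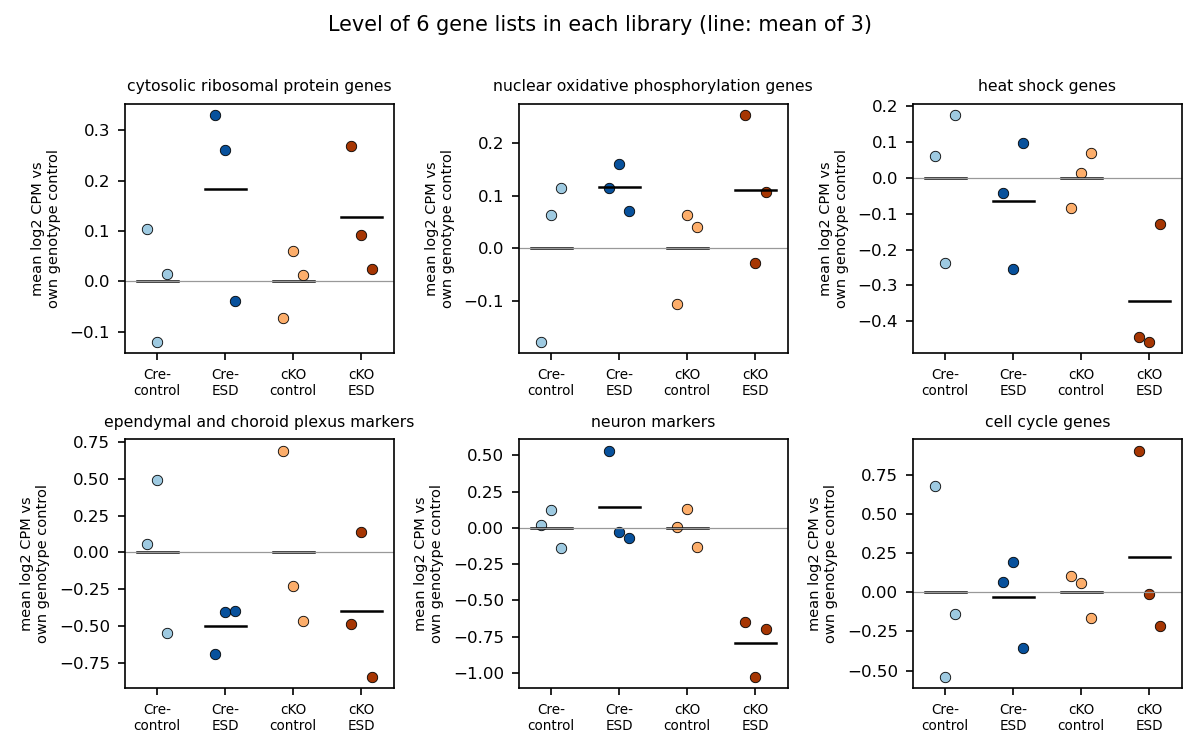
Mean log2 CPM over the members of 6 gene lists in each library, as the difference from the mean of the controls of the same genotype; points are libraries and lines the mean of 3. Neuron markers lie lower in all 3 AGR cKO ESD libraries (-0.65 to -1.03) and Cre- ESD 1 (0.53) stands above the other Cre- ESD libraries, and cell cycle genes vary as much among controls as between conditions.

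Markers of ependymal and mural cells lay mostly below 0. All 12 ependymal and choroid plexus markers were below 0 (median -0.42), 4 of them lower at an unadjusted p under 0.05 (edgeR), where 5.96% of all genes were. Foxj1, the master factor of motile cilia, stood at 46.0, 60.7 and 38.8 CPM in Cre- control and 25.4, 28.9 and 30.6 CPM in Cre- ESD libraries, without overlap. In AGR cKO it stood at 39.2, 32.3 and 25.5 CPM in control and 27.2, 37.1 and 22.8 CPM in ESD libraries, with overlap. Rarres2, chemerin, had -0.32 ± 0.08 and Dynlrb2, a ciliary dynein light chain, -0.54 ± 0.15, both separated within each genotype. Ttr, the defining choroid plexus gene, averaged 0.88 CPM. The summed markers ran from 58.2 to 149.8 CPM in control and 55.4 to 91.2 CPM in ESD libraries.

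Of 14 mural cell and fibroblast markers 12 were below 0 (median -0.45, with -0.11 in Cre- and -0.70 in AGR cKO). At an unadjusted p under 0.05 (edgeR) 5 were lower, beside 5.96% of all genes. Pdgfrb, the pericyte receptor, stood at 433 to 673 CPM in Cre- control and 384 to 707 CPM in Cre- ESD libraries. AGR cKO libraries held 639 to 677 CPM in control and 328 to 544 CPM in ESD libraries, without overlap. The summed markers ran from 3088 to 6008 CPM in control and 2066 to 5878 CPM in ESD libraries. Of 14 endothelial markers 12 were below 0 (median -0.27), but the median was 0.12 in the fit that left out Cre- control 1. Neuron markers lay apart in the genotypes, with 15 of 19 above 0 in Cre- (45.9% of all genes were; median 0.16) and 1 of 19 in AGR cKO (51% of all genes; median -0.65); the difference of the medians was not tested. Their mean log2 CPM, set against the controls of the same genotype, was 0.53 in Cre- ESD 1 and -0.03 and -0.07 in the other Cre- ESD libraries, so the Cre- value rested on 1 library. In AGR cKO all 3 ESD libraries were low. Rbfox3, the marker NeuN, stood at 1.96 to 2.17 CPM in AGR cKO control and 0.93 to 1.03 CPM in AGR cKO ESD libraries. The 5 erythroid genes were all above 0 in Cre- and all below 0 in AGR cKO, but the ESD libraries of each genotype were uneven. On the same scale the Cre- ESD libraries stood at 0.68, 0.10 and -0.02, beside 0.62 in Cre- control 1, and the AGR cKO ESD libraries at -1.36, -2.10 and 0.03. Their joint median of -0.35 was -0.14 without AGR cKO ESD 2 and 0.0042 without Cre- control 1, Cre- ESD 3 and AGR cKO ESD 1 together. Summed neuron markers, most of them Map2, ran from 455 to 638 CPM in control and 556 to 609 CPM in ESD libraries. Microglia and macrophage markers gave 13 of 20 above 0 and a median of 0.03, which ran from -0.12 without Cre- control 2 to 0.27 without Cre- control 1 and was 0.52 without the 3 libraries just named. Of 11 oligodendrocyte markers tested 7 were above 0 (Mog and Opalin did not pass the filter on low counts). The part of these cells in the differences of other genes was not tested.

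Reactive astrocyte genes had small medians that moved with single libraries. Of the pan-reactive genes 5 of 13 were above 0 (median -0.02), with 8 in Cre- and 5 in AGR cKO, and the joint median ran from -0.08 without AGR cKO ESD 2 to 0.04 without Cre- control 1. Of the A1-type genes 3 of 12 were above 0 (median -0.16), and this median ran from -0.26 without Cre- control 2 to -0.04 without Cre- control 1. Of the A2-type genes 4 of 12 were above 0 (median -0.13), with 6 in Cre- and 2 in AGR cKO, and the joint median ran from -0.20 without Cre- ESD 1 to -0.05 without AGR cKO ESD 3. Without Cre- control 1, Cre- ESD 3 and AGR cKO ESD 1 together the pan-reactive, A1-type and A2-type medians were 0.12, 0.08 and -0.10. S1pr3, a sphingosine phosphate receptor, stood at 73.1, 118 and 129 CPM in control and 45.1, 71.1 and 94.3 CPM in ESD libraries (log2 fold change -0.66 ± 0.17, edgeR adjusted p = 0.444). Cre- control 2 was the only control within the ESD range, and AGR cKO ESD 2 was the lowest ESD library. These libraries were also the lowest of their condition in summed mural cell and fibroblast markers (3088 and 2066 CPM). The part of mural cells in the S1pr3 values was not tested. Tm4sf1, a tetraspanin-like membrane protein known from vessels, stood at 37.8, 41.0 and 58.4 CPM in control and 17.2, 29.9 and 45.0 CPM in ESD libraries (-0.57 ± 0.16). Among synapse-regulating factors 6 of 16 were above 0 (median -0.05, or -0.01 without AGR cKO ESD 2), and the thrombospondins, which promote synapse formation, gave the smallest p: Thbs1 -0.44 ± 0.17 and Thbs2 -0.30 ± 0.13 (-0.19 without Cre- control 1). Interferon-stimulated genes gave 6 of 18 above 0 (median -0.07, or 0.05 without AGR cKO ESD 1).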

How the data were processed

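Polyadenylated RNA of 12 libraries was sequenced; the labels' protocols give stranded mRNA library preparation from 1 µg of RNA with an integrity number above 7.0. The submitters' processing notes list, without roles, StringTie 1.3.4b, HISAT2 2.1.0, Bowtie2, DESeq2, HISAT, Trimmomatic and build mm10. The authors deposited whole read counts per gene, with no normalization stated, and the use of strand in counting is not given in the sources used here. TPM and FPKM values are in the same deposited table per the file headers; TPM served as an alternative and FPKM was not used. The names cre_M and cre_P in the table's columns were read as Cre minus and plus; sample titles were followed where genotype labels count upward (Nr3c1, Nr3c2, Nr3c3).

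Of 45777 genes, 19163 passed filterByExpr of edgeR 4.0.16 (R 4.3.3). Counts were scaled by TMM, and a quasi-likelihood model of genotype plus condition was fitted to all 12 libraries (9 residual degrees of freedom). Contrasts within genotype and the interaction came from a model with 1 mean per group (8 residual degrees of freedom). Calls needed a two-sided p under 0.05 after Benjamini-Hochberg adjustment. Levels are CPM with TMM factors. Errors of fold changes are approximate standard errors: the size of the log2 fold change divided by the square root of the quasi-likelihood F. The script was tested on simulated data. Positions are those of RefSeq GRCm38.p6.

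Named were the 12 higher and 12 lower genes of smallest p among those of at least 5 CPM without a predicted-model symbol, 11 genes given regardless, the 5 of smallest interaction p at 5 CPM or more, and up to 4 members of smallest p from each of 28 lists (442 symbols, 440 tested). A few genes that met these rules are not reported here. The comparison, its lists and the rule were chosen with earlier results of these data known. Alternatives were DESeq2 1.42.0, limma 3.58.1 on log2(TPM + 1) and log2(TPM + 0.1), other scalings, filters, models and thresholds, a replicate block, and libraries left out.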

Additional observations from a re-analysis of the deposited data

Results flagged for a closer look

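For the leading genes, the genes given regardless and those of smallest interaction p, log2 CPM less the genotype's mean was compared among the 6 ESD and among the 6 control libraries. Of these 78 groups 4 held a library far from the rest; chance alone gives about 1 in 20. Fkbp5 stood at 103 CPM in Cre- ESD 3 and at 3.35 to 11.1 CPM in the other ESD libraries. Mertk stood at 429 CPM in Cre- control 1, the lowest value of its genotype. Nr3c1 stood at 66.6 CPM in AGR cKO ESD 2, the lowest of all libraries. Axl stood at 365 CPM in Cre- control 1 and at 429.5 to 460 CPM in the other control libraries.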

How the results depend on the processing

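The count of 0 genes called for separation (edgeR) held under other scalings, filters, thresholds, models and limma on TPM, and was 31 in DESeq2, which left 753 adjusted p-values undefined; the cause was not tested. With 1 library left out it was 0 to 1: Sned1 (log2 fold change -0.56, adjusted p = 0.0151) without AGR cKO ESD 3. Within Cre- it was likewise 0 to 1, Zbtb16 without AGR cKO ESD 3 (2.57, adjusted p = 0.0332); within AGR cKO and for the interaction it was 0 throughout. Smallest adjusted p-values with 1 library left out ran from 0.0151 to 0.643 for the joint comparison and from 0.0332 to 0.552 within Cre-. The predicted gene Gm15564 (-11.92, adjusted p = 0.0322) was called without Cre- control 1, Cre- ESD 3 and AGR cKO ESD 1 together, an alternative chosen after seeing the data.

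With replicate number as a block, 0 genes were called in all 4 comparisons. Same-numbered libraries had correlations of their deviations of 0.40, 0.02 and 0.23 in Cre- and 0.21, -0.06 and 0.29 in AGR cKO. Of these 6, 4 correlated best with their own number. The minimum correlation set for pairing was 0.1, which the values of 0.02 and -0.06 did not reach. The numbers were therefore not taken as pairs in the main model, but the 4 best matches do not show that same-numbered libraries are unrelated. The block gave Megf10 -0.0032.

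Genes at an unadjusted p under 0.05 numbered 590 to 1109 higher and 794 to 1588 lower with 1 library left out, 553 higher in limma with 0.1 added, and 1717 lower in unfiltered limma. Genes without overlap numbered 16 higher and 84 lower with library totals, and 57 to 163 and 54 to 158 with 1 library left out, where fewer libraries must separate.

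Directions turned for small values and for some larger ones. With all libraries and TMM scaling Ccnb1 stood at 0.42, Cdk1 at 0.31, Tek at -0.38, Slco1a4 at -0.39 and Eng at -0.50. With library totals the log2 fold changes were -0.0090 for Axl, -0.0020 for Cacng8 and -0.031 for Megf10; limma gave them as -0.049, -0.0030 and -0.040 with 1 added (filtered or not) and -0.049, -0.0029 and -0.040 with 0.1 added. With 1 library left out the ranges were -0.018 to 0.056 for Axl, -0.048 to 0.074 for Megf10, -0.165 to 0.087 for Sgk1, -0.56 to 0.057 for Tek, -0.091 to 0.036 for Abcb9, -0.014 to 0.071 for Cacng8, -0.066 to 0.31 for Tsc22d3, -0.00040 to 0.70 for Ccnb1 and -0.070 to 0.65 for Cdk1. Without the 3 libraries named above they were 0.039 for Eng, 0.022 for Ddx58, 0.023 for Mcm6, 0.022 for Hba-a2, 0.22 for Slco1a4, -0.11 for Tsc22d3, 0.028 for Hba-a1, 0.021 for Mrc1, 0.39 for Tek, -0.056 for Axl, 0.24 for Sgk1 and -0.13 for Megf10; the median of endothelial markers was then 0.43.

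Of the alternatives for named genes, 3884 kept direction and side of the threshold, 19 passed it (all in DESeq2) and 43 turned direction; the cause was not tested. At 42.6 to 52.1 reads per CPM by library size alone, depth limits mainly genes under 1 CPM, such as Slc32a1 (0 to 0.75 CPM).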

Other observations

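Other groups of genes showed values near 0 or values set by single libraries. Of 16 circadian clock genes 9 were above 0 (median log2 fold change 0.02). Npas2, a partner of the clock's activator, stood at 24.6, 33.8 and 48.0 CPM in control and 23.3, 41.3 and 67.8 CPM in ESD libraries (0.25 ± 0.10, edgeR adjusted p = 0.458). Of 16 immediate early genes 10 were above 0 (median 0.02), and Fos, the best known of them, had a log2 fold change of 0.20 ± 0.14.

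Cell cycle genes lay apart in the genotypes, with 6 of 21 above 0 in Cre- (median -0.10) and 20 of 21 in AGR cKO (median 0.34); the difference of the medians was not tested. Their mean log2 CPM, set against the controls of the same genotype, was 0.90 in AGR cKO ESD 1, beside -0.01 and -0.21 in the other AGR cKO ESD libraries, and 0.68 in Cre- control 1. Cdk1, the kinase that drives mitosis, stood at 14.6 CPM in AGR cKO ESD 1 and 11.1 CPM in Cre- control 1. Its log2 fold change of 0.31 ± 0.37 was -0.07 without AGR cKO ESD 1.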
